A study of Mus musculus with 15 samples.

Results

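The oligodendrocyte lineage genes Olig1, Olig2, Sox10, Nkx2-2, Cspg4, Gpr17, Mbp and Cnp were followed through 15 poly(A) RNA libraries. They are the 8 rows of the count table, of 49585 genes in all, that carry these symbols, and each symbol was found once. The starting cells were 005, a mouse glioma stem cell line of C57BL/6 origin kept in serum-free stem cell medium. TDECs are tumor-derived endothelial cells grown from 005 in EGM-2 endothelial medium at 1% oxygen, and were taken on day 2 or as untreated TDECs, which the study describes as day 5. A further group of TDECs was differentiated for 5 days and then given 5 μM of the antidepressant sertraline, with collection 24 hours later. MBMECs are purchased mouse brain microvascular endothelial cells grown in their own medium with serum. Each of the 5 groups had 3 libraries. All 4 groups of the 005 lineage come from a single line, medium and oxygen changed together in every TDEC group, and the labels do not say that libraries came from separate cultures. The study calls the untreated and sertraline TDECs biological replicates; for the other groups the p-values may measure technical spread only.

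Oligodendrocytes are the cells that wrap axons of the central nervous system in myelin. They arise from dividing progenitors that carry the transcription factors OLIG1, OLIG2, NKX2-2 and SOX10 and the surface proteoglycan NG2, pass through a committed stage marked by the receptor GPR17, and then make myelin proteins such as MBP and CNP. OLIG2 and its partners are also familiar from gliomas, whose stem-like cells often share the progenitor program.

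The libraries held 11283680 to 17093061 counts. Replicate 3 of 005 and replicate 3 of day 2 stood apart from the other libraries of their groups, their counts differing from the others by a chi-square of 11.2 to 11.4 and 11.1 to 11.7 per gene, where the remaining pairs gave 2.15 and 2.50. In the sertraline group it was replicate 2, with 6.97 to 7.27 against 2.28. Each comparison was also fitted without each of its libraries in turn, and for some members the values without these libraries are given. Levels are CPM, the counts of a gene relative to the total of its library, with TMM scaling over all 15 libraries, and changes are log2 fold changes from edgeR's two-sided quasi-likelihood test. To be called higher or lower, a gene needed both an adjusted p under 0.05 and a log2 fold change beyond 1 in either direction.

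The genes lie on 6 chromosomes in mm10. Olig2 (chr16:91225550-91228677) and Olig1 (chr16:91269772-91271933) are neighbours on the plus strand of chromosome 16, and 41094 bases separate them. Sox10 lies at chr15:79154913-79164490 on the minus strand, Nkx2-2 at chr2:147177546-147194243 on the minus strand and Cspg4 at chr9:56865033-56899870 on the plus strand. Cnp lies at chr11:100574904-100591729 on the plus strand. Gpr17 and Mbp are placed where they are described. Because most of these genes moved together, upstream sequence is shown for the 4 of 8 members that matched the RefSeq promoter table. Each window holds the 150 bases that lie 250 to 101 bases before the RefSeq start in GRCm38.p6, 5′ to 3′ on the strand of the gene, and contains no annotated exon. The Nkx2-2 window lies inside the gene as placed above, because the RefSeq start used is an internal one. Sequence before its outer annotated start is not shown. Capitals mark matches on either strand to the E-box CAGCTG, to ACGTG or GCGTG, the core read by hypoxia-inducible factors, or to ACAAT, a core read by SOX proteins.
Olig2, chr16:91225300-91225449, plus strand: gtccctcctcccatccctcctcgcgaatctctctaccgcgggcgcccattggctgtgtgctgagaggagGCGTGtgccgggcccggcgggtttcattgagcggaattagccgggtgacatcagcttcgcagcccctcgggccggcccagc
Nkx2-2, chr2:147186503-147186652, minus strand: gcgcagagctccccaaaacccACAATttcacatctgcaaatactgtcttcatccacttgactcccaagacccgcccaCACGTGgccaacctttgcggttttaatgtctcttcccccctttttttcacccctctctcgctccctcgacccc
Cspg4, chr9:56864854-56865003, plus strand: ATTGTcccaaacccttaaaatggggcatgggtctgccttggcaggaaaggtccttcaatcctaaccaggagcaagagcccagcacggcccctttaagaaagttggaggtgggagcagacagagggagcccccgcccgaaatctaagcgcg
Cnp, chr11:100574689-100574838, plus strand: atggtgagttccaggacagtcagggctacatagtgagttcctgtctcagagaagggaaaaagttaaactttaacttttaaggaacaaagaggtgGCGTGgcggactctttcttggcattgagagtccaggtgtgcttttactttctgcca

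The E-box CAGCTG was in 0 of these 4 windows and in 7.52% of 32851 promoter windows of the same length. The hypoxia core matched in the windows of Olig2, Nkx2-2 and Cnp and in 23.6% of all windows. In Nkx2-2 its 2 matches are the overlapping strands of a single palindrome, CACGTG. The SOX core matched in Nkx2-2 and Cspg4 and in 18.6% of all windows. These matches describe letters in a short window and were not tested against expression.

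Levels in the 005 cells differed widely between members and did not follow the stages of the lineage. Per kilobase of exon, the mean level in 005 was 401 CPM for Olig1, 221 CPM for Olig2, 30.3 CPM for Nkx2-2, 21.3 CPM for Cnp and 7.50 CPM for Cspg4. Gpr17 reached 0.441 CPM per kilobase, Sox10 0.103 and Mbp 0.0398. Untreated TDECs had the order Olig1, Olig2, Cnp, Nkx2-2 and Cspg4, at 104, 83.9, 20.3, 12.6 and 1.51 CPM per kilobase, with Cnp now above Nkx2-2. In MBMECs Cnp was at 19.4 CPM and Gpr17 at 1.22 CPM per kilobase, and the other 6 members were at 0.0264 CPM per kilobase or below.

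**Figure D1:**
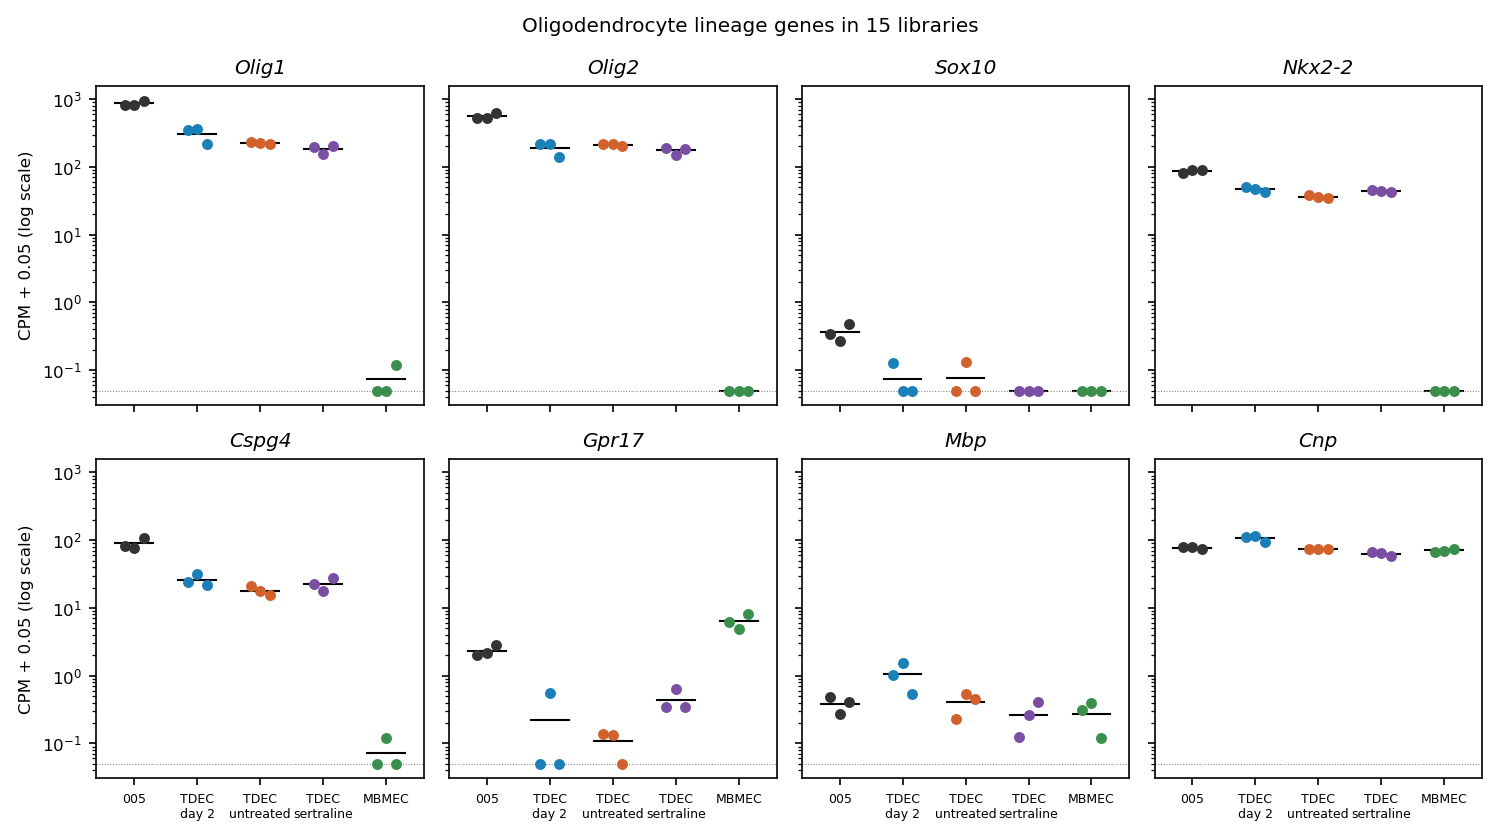
Each panel plots 1 gene, with CPM + 0.05 on a log axis, a point per library and a line at the mean of each of the 5 groups, and the dotted line marks 0 CPM. Olig1, Olig2, Nkx2-2 and Cspg4 stepped down from 005 to the TDEC groups and were at or near 0 in MBMECs, Cnp stayed between 58.4 and 116 CPM in all 15 libraries, and Gpr17 was highest in MBMECs.

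The first question was what happened to the lineage genes as 005 cells became TDECs. On day 2, 4 members were lower than in 005 and 0 were higher, of 6 that passed the filter on low counts, where 4.48% of all 15344 genes tested were called lower and 5.35% higher. Olig1, Olig2, Cspg4 and Gpr17 made up the 4. The median log2 fold change of the 6 was -1.54, beside -0.02 over all genes tested. In untreated TDECs 5 of 6 were lower than in 005 and 0 were higher, with Nkx2-2 added, where 10.4% of 15648 genes were called lower and 13.1% higher. The median of the 6 was -1.66, beside -0.01 over all genes. On day 2 a single tested member, Cnp, was higher at an unadjusted p under 0.05, and in untreated TDECs 0 were. DESeq2 also called 0 higher in both. Both comparisons use the same 005 libraries, and the later ones share the untreated TDEC libraries. In bulk RNA, fewer cells that express a gene and less RNA per cell cannot be told apart.

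Olig1 and Olig2 encode paired basic helix-loop-helix factors that specify the lineage. Olig1 stood at 817, 830 and 955 CPM in 005, at 348, 357 and 215 CPM on day 2 and at 230, 228 and 218 CPM in untreated TDECs. All 005 libraries lay above all TDEC libraries, and day 2 replicate 3 was as low as the untreated TDECs. The log2 fold change against 005 was -1.52 ± 0.16 (SE, n = 3 against 3, edgeR adjusted p = 2.96e-05) on day 2 and -1.94 ± 0.07 (edgeR adjusted p = 1.88e-10) in untreated TDECs. Olig2 stood at 530, 528 and 617 CPM in 005, at 220, 215 and 139 CPM on day 2 and at 216, 215 and 207 CPM in untreated TDECs. Its day 2 and later levels overlapped, again with day 2 replicate 3 lowest. The log2 fold change of Olig2 against 005 was -1.56 ± 0.15 on day 2 (edgeR adjusted p = 1.52e-05) and -1.38 ± 0.07 in untreated TDECs (edgeR adjusted p = 3.96e-09). Without replicate 3 of both groups, the day 2 changes were -1.23 for Olig1 and -1.28 for Olig2.

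Nkx2-2, a homeodomain factor of progenitors that helps to start differentiation, changed in the same direction and passed both thresholds only in untreated TDECs. It stood at 81.5, 88.7 and 91.2 CPM in 005, at 49.95, 46.8 and 42.7 CPM on day 2 and at 38.6, 35.5 and 34.3 CPM in untreated TDECs. The 3 groups did not overlap. Its log2 fold change against 005 was -0.92 ± 0.09 on day 2, below the fold threshold although the adjusted p was 1.89e-05, and -1.26 ± 0.08 in untreated TDECs (edgeR adjusted p = 2.83e-08).

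Nkx2-2 shares 278 exon bases with the antisense gene Nkx2-2os. The library kit keeps strand, but the strand setting of the counting is not given in the sources used here, so reads of the shared bases cannot be told apart. Nkx2-2os held 940 counts in 005, 515 on day 2, 370 in untreated TDECs and 606 with sertraline, or 26.0%, 28.2%, 28.7% and 33.5% of the Nkx2-2 counts. Both genes had 0 counts in MBMECs. Olig1 also overlaps a lincRNA by 157 bases, which had 0 counts in every group, and Cnp shares 154 exon bases with Dnajc7 on the opposite strand. Dnajc7 held 5958 counts in 005, 7419 on day 2, 5809 in untreated TDECs, 6313 with sertraline and 7439 in MBMECs. Whether its reads add to the Cnp counts was not tested.

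Cspg4, which encodes NG2, the surface proteoglycan by which progenitors are recognised, also fell. It stood at 82.8, 77.4 and 108 CPM in 005, at 23.8, 32.1 and 22.1 CPM on day 2 and at 20.8, 17.5 and 15.6 CPM in untreated TDECs. Every TDEC library was below every 005 library. Its log2 fold change against 005 was -1.80 ± 0.15 on day 2 (edgeR adjusted p = 7.67e-06) and -2.31 ± 0.14 in untreated TDECs (edgeR adjusted p = 2.3e-08). NG2 is also made by pericytes. The 8 mural markers summed to 80.6 to 86.5 CPM in 005, 148 to 173 CPM on day 2 and 166 to 171 CPM in untreated TDECs, nearly all of it Notch3, at 82.5, 160.1 and 162 CPM on average. The other 7 were each at 3.97 CPM or below on average in these groups. Of 2 mural markers tested on day 2, 1 was called higher, Rgs5 by 2.76 (edgeR adjusted p = 0.00161). Of 2 tested in untreated TDECs against 005, 1 was called higher, Pdgfrb by 3.87 (edgeR adjusted p = 1.05e-06). The shares of higher genes over all genes tested were 5.35% and 13.1%. Against day 2, Pdgfrb changed by 2.27 and Rgs5 by -1.99 in untreated TDECs, both called. The part of mural cells in the result was not tested.

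Gpr17, a receptor of committed precursors, was rare in the 005 lineage. The gene lies at chr18:31942997-31949636 on the minus strand. Its 3 libraries of 005 held 27, 29 and 39 counts, those of day 2 held 0, 7 and 0, and those of untreated TDECs held 1, 1 and 0. The ranges of 005 and TDECs did not overlap. The log2 fold change on day 2 was -3.64 ± 0.71 (edgeR adjusted p = 0.00188). It rests on 7 counts of day 2 replicate 2, without which the group had none and the fitted value, which then depends on edgeR's prior count, was -7.94. Between 005 and untreated TDECs the ratio was 40.9, with a 95% counting interval of 11.01 to 343 (edgeR adjusted p = 5.59e-06). Counting intervals cover counting error only.

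Sox10, which turns on myelin genes together with its partners, passed the filter in 0 comparisons. It held 4, 3 and 6 counts in 005, a single count on day 2 and in untreated TDECs, and 0 counts with sertraline and in MBMECs. The ratio of 005 to day 2 was 12.3 with a counting interval of 1.85 to 523, and that of 005 to untreated TDECs was 11.2 with an interval of 1.68 to 476. Against the sertraline group 005 was at least 4.33-fold higher, taking 3 counts over that group as the floor. When all genes of at least 1 count were tested, Sox10 was called lower in untreated TDECs than in 005, with a log2 fold change of -3.10 (edgeR adjusted p = 0.0419), and its value on day 2 was -3.21 (edgeR adjusted p = 0.0825). DESeq2 gave an adjusted p of 0.0887 for untreated TDECs.

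The myelin genes Mbp and Cnp did not follow the progenitor genes. Mbp, at chr18:82475146-82585637 on the plus strand, encodes a main protein of compact myelin. It held 6, 3 and 5 counts in 005, 13, 21 and 6 counts on day 2 and 2, 6 and 5 counts in untreated TDECs. The day 2 range touched that of 005, and Mbp was not tested because of its low counts. When day 2 replicate 3 was left out it passed the filter and was called higher than in 005, with a log2 fold change of 1.84 (edgeR adjusted p = 0.014). With that library and 1 library of 005 fewer (replicate 3 of both groups) the value was 1.91 (edgeR adjusted p = 0.00773). With all libraries and all genes of at least 1 count it was 1.55 (edgeR adjusted p = 0.0534).

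Cnp, an enzyme of non-compact myelin that other cells also make at low levels, was the only member above 005 on day 2 among those tested. It stood at 78.1, 79.6 and 75.1 CPM in 005, at 111, 116 and 94.8 CPM on day 2 and at 73.1, 74.9 and 74.0 CPM in untreated TDECs. Day 2 lay above both other groups without overlap. The log2 fold change was 0.45 ± 0.09 on day 2 (edgeR adjusted p = 0.00234), under the fold threshold. Against 005 the untreated TDECs differed by -0.06, with a 95% confidence interval of -0.19 to 0.08 (edgeR adjusted p = 0.429).

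**Figure D2:**
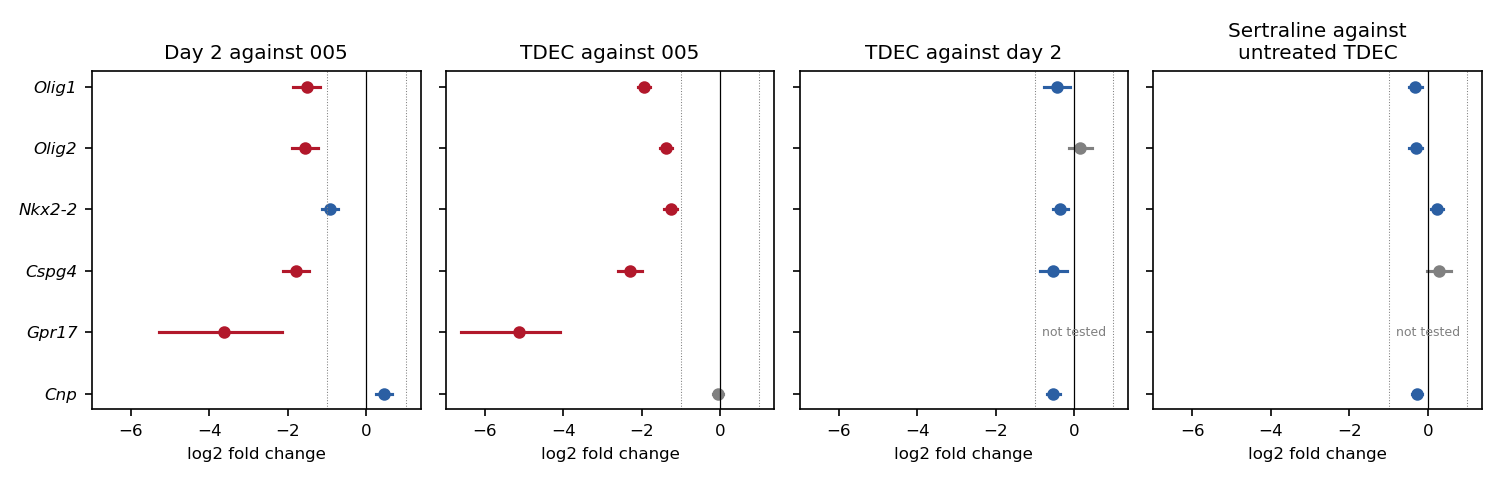
Points give the log2 fold change of 6 lineage genes in 4 comparisons and bars the 95% confidence interval of edgeR's quasi-likelihood fit over 6 libraries; red marks called genes, blue an adjusted p under 0.05 without the fold, grey the rest, and dotted lines a change of 1. Against 005, 4 and 5 of these genes were called lower, and in the other comparisons shown 0 passed both thresholds.

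Untreated TDECs were then compared with day 2. Of the members, 5 were tested and edgeR called 0 in either direction, where 11.1% of 15508 genes were called higher and 9.35% lower. The p was under 0.05 for 4 of the 5, both adjusted and unadjusted, and DESeq2 also called 0. The share of all genes under 0.05 without the fold is not given here, so the 4 are not read as particular to the members. Cnp was lower by 0.53 on the log2 scale (edgeR adjusted p = 0.000124), Cspg4 by 0.53 ± 0.15 (edgeR adjusted p = 0.011) and Nkx2-2 by 0.35 ± 0.09 (edgeR adjusted p = 0.00387), each with groups that did not overlap. Olig1 changed by -0.43 ± 0.15 with overlapping groups (edgeR adjusted p = 0.0241, and 0.0962 at most over the alternatives). Olig2 differed by 0.16, with a confidence interval of -0.14 to 0.46 (edgeR adjusted p = 0.323). The value for Olig2 became -0.03 without day 2 replicate 3. The median of the 5 was -0.43, beside 0.00 over all genes. Mbp was called lower by 1.75 on the log2 scale when day 2 replicate 3 was left out (edgeR adjusted p = 0.00637) and was not tested with all libraries.

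The neighbours Olig1 and Olig2 were also compared within each library. The ratio of Olig1 to Olig2 counts was 1.55 ± 0.0155 in 005 (SD, n = 3) and 1.596 ± 0.0558 on day 2. In untreated TDECs it was 1.06 ± 0.00556, and with sertraline 1.06 ± 0.0304. Ratios ran from 1.54 to 1.66 over the 6 libraries of 005 and day 2 and from 1.03 to 1.09 over the 6 later ones. The ratio is free of library scaling, since both counts come from the same library. On the log2 scale it differed by -0.59 between untreated TDECs and day 2 and by -0.55 between untreated TDECs and 005, each with an exact permutation p of 0.1, the smallest that 3 libraries against 3 allow. Between day 2 and 005 the difference was 0.04 (exact permutation p = 0.3), and between sertraline and untreated TDECs it was -0.01 (exact permutation p = 0.9).

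**Figure D3:**
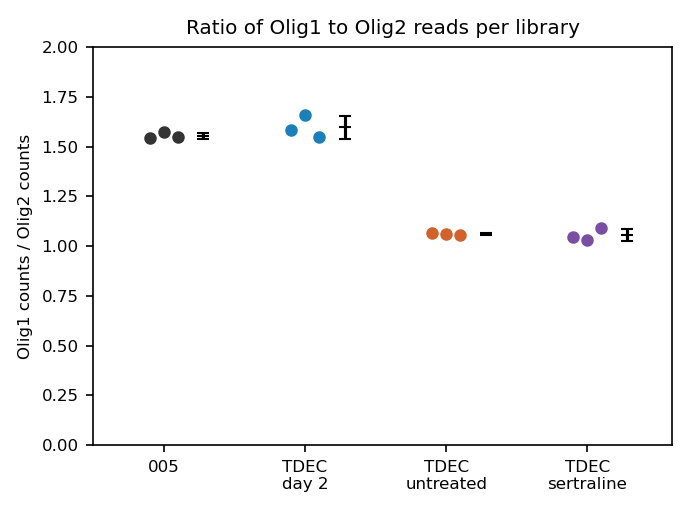
The vertical axis gives Olig1 counts divided by Olig2 counts, with a point per library and the mean ± SD beside each of 4 groups of 3 libraries. The 005 and day 2 libraries sit between 1.54 and 1.66, and the untreated and sertraline TDECs between 1.03 and 1.09.

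TDECs were next set against MBMECs, to see how far lineage genes separate them from brain endothelial cells. Of 6 members tested, 4 were higher and 1 was lower in untreated TDECs, where 28.1% of 16135 genes were called higher and 20.8% lower. No median is given, because MBMECs had 0 counts of some members. Olig2 and Nkx2-2 had 0 counts in all 3 MBMEC libraries, and untreated TDECs were at least 3128-fold and 532-fold higher, taking 3 counts over the MBMEC group as the floor. Olig1 and Cspg4 each had a single count in MBMECs. The ratio was 9947 for Olig1, with a counting interval of 1785 to 392900, and 791 for Cspg4, with an interval of 142 to 31300. Sox10 was not tested, and it had 0 counts in MBMECs against a single count in untreated TDECs.

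Cnp did not separate TDECs from MBMECs beyond the fold threshold. It stood at 67.1, 70.4 and 74.8 CPM in MBMECs, a range that overlapped the untreated TDECs. The log2 fold change was 0.13 ± 0.06 (edgeR adjusted p = 0.0396), and the adjusted p rose to 0.266 at most over the alternatives. Mbp held 4, 5 and 1 counts in MBMECs and was not tested.

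Gpr17 went the other way and was highest in the endothelial cells. MBMECs held 94, 70 and 114 counts of Gpr17, or 6.07, 4.79 and 8.08 CPM. All 3 lay above every library of the 005 lineage. The ratio of MBMECs to untreated TDECs was 112, with a counting interval of 30.8 to 931 (edgeR adjusted p = 3.63e-13). Gpr17 shares 188 exon bases with Lims2 on the opposite strand, a focal adhesion gene. Lims2 held 542, 419 and 520 counts in the MBMEC libraries and 35 counts over all of 005, 7 on day 2, 9 in untreated TDECs and 16 with sertraline. In MBMECs the Gpr17 counts were 17.3%, 16.7% and 21.9% of the Lims2 counts, while in 005 they exceeded them. Whether reads of Lims2 account for Gpr17 counts in MBMECs was not tested, as reads of the shared bases cannot be told apart.

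**Figure D4:**
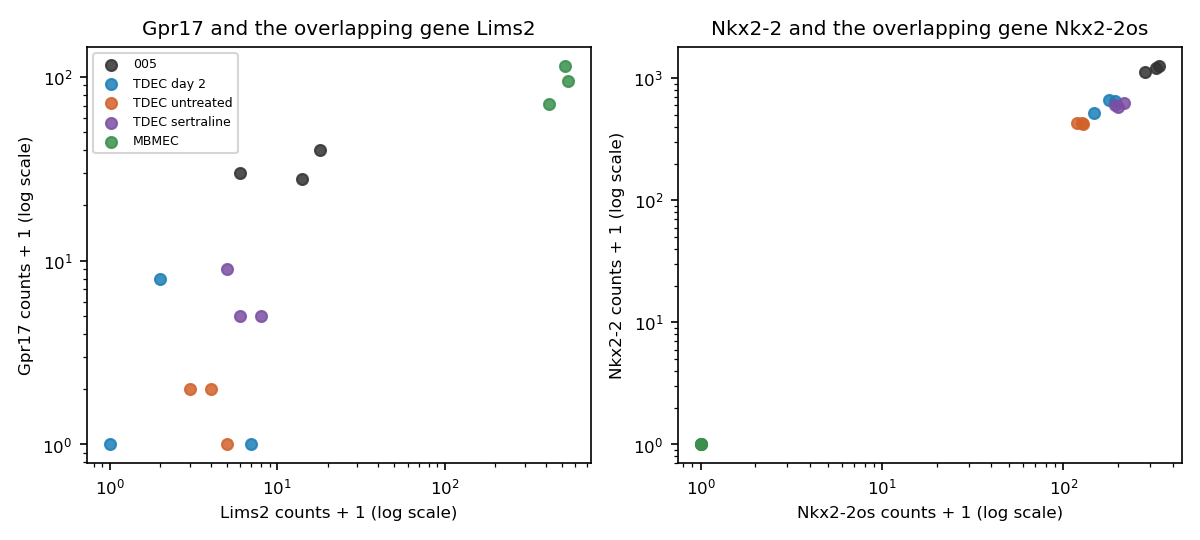
Both panels use log axes with 1 added to the counts and show a point per library, coloured by group; the left panel sets Gpr17 against Lims2 and the right panel Nkx2-2 against Nkx2-2os. The MBMEC libraries have 419 to 542 counts of Lims2 with 70 to 114 of Gpr17, and they have 0 counts of both genes in the right panel.

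The last question was whether sertraline, given to TDECs, moved the lineage genes. Of 5 members tested edgeR called 0 in either direction, where 1.82% of 15540 genes were called higher and 3.26% lower. The p was under 0.05 for 4 of the 5, both adjusted and unadjusted, and DESeq2 also called 0. Here too the share of all genes under 0.05 without the fold is not given, so the 4 are not read as particular to the members. The median of the 5 was -0.27, beside 0.00 over all genes. The treated cells were collected 24 hours after the drug was added and the labels give no day for the untreated TDECs, so drug and time in culture cannot be told apart.

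Olig1 stood at 198, 154 and 203 CPM with sertraline and Olig2 at 190, 150 and 186 CPM. Replicate 2 was lowest for both, and all treated libraries lay below the untreated ones. The log2 fold change was -0.32 ± 0.08 for Olig1 (edgeR adjusted p = 0.00633) and -0.31 ± 0.07 for Olig2 (edgeR adjusted p = 0.00415). Without sertraline replicate 2 the values were -0.20 and -0.21, and in a fit over all 15 libraries the adjusted p was 0.101 and 0.0904. Nkx2-2 moved the other way, with 45.4, 43.4 and 42.3 CPM and a log2 fold change of 0.24 ± 0.08 (edgeR adjusted p = 0.021, and 0.102 at most over the alternatives). Cnp, at 65.8, 64.3 and 58.4 CPM, was lower by 0.27 ± 0.06 on the log2 scale (edgeR adjusted p = 0.00314).

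Cspg4 stood at 22.3, 17.7 and 27.6 CPM with sertraline, overlapping the untreated TDECs. Its log2 fold change was 0.30, with a confidence interval of -0.01 to 0.60 (edgeR adjusted p = 0.123), and 0.45 without sertraline replicate 2 (edgeR adjusted p = 0.00194). Gpr17 was not tested. It held 4, 8 and 4 counts against 1, 1 and 0, a ratio of 6.89 with a counting interval of 1.62 to 61.8. Mbp held 1, 3 and 5 counts with sertraline and was not tested.

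A list of 52 further lineage genes places the 8 in their pathway. It was divided into other transcription factors, progenitor genes, committed precursor genes and myelin genes. On day 2 the list had 5 lower and 2 higher genes of 32 tested, where 4.48% and 5.35% of all genes tested were lower and higher. Untreated TDECs had 9 lower and 2 higher of 32, where the shares were 10.4% and 13.1%. The median log2 fold change was -0.28 and -0.35, beside -0.02 and -0.01 over all genes. The 20 genes not tested were mostly myelin genes, among them Mag, Mog, Mobp and Opalin, which are made by mature oligodendrocytes.

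Of the progenitor genes 3 of 9 tested were lower on day 2 and 5 of 8 were lower in untreated TDECs. The shares of lower genes over all genes tested were 4.48% and 10.4%. Pdgfra, the receptor for the growth factor that drives progenitor division, changed by -1.81 ± 0.16 on day 2 and by -1.02 ± 0.10 in untreated TDECs on the log2 scale (edgeR adjusted p = 9.7e-06 and 2.95e-06). Pcdh15, a protocadherin of progenitors, changed by -2.46 and -3.47, and Lhfpl3 by -1.47 and -3.30. Cacng4, an auxiliary subunit of AMPA receptors, fell by 1.23 in untreated TDECs and was not called on day 2. Between day 2 and untreated TDECs 3 of 8 progenitor genes tested were lower and 1 was higher, beside 9.35% and 11.1% of all genes. Lhfpl3 and Pcdh15 fell further, with log2 fold changes of -1.85 and -1.03 in untreated TDECs against day 2 (edgeR adjusted p = 2.31e-06 and 0.000121), and Susd5 changed by -2.01. C1ql1 rose by 1.18 (edgeR adjusted p = 0.00446), and the value for Pdgfra was 0.77, under the fold threshold (edgeR adjusted p = 0.00153).

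Later stages were mixed. Of the committed precursor genes 1 of 7 tested was called, Bcas1, a marker of newly forming oligodendrocytes, which rose by 1.06 ± 0.10 on day 2. That day 5.35% of all genes tested were higher and 4.48% lower. In untreated TDECs 0 of 7 were called against 005, with Bcas1 at 0.35, where 13.1% of all genes were higher and 10.4% lower. Between day 2 and untreated TDECs Bcas1 changed by -0.73, under the fold threshold (edgeR adjusted p = 4.83e-05). Of 8 myelin genes tested on day 2, Plekhb1 rose by 2.34 and Cldn11, the tight junction protein of myelin, changed by -1.45. In untreated TDECs 2 of 9 myelin genes were higher, among them Plekhb1 by 2.82, and 3 were lower. The shares over all genes there were 13.1% higher and 10.4% lower. The lower genes were Cldn11 (-3.63), the connexin gene Gjc3 (-2.29) and Ugt8a (-1.55), whose enzyme makes the galactolipids of myelin. The 22 myelin genes summed to 34.9 to 38.6 CPM in 005, 34.5 to 44.9 CPM on day 2 and 39.6 to 42.8 CPM in untreated TDECs. Plekhb1 alone gave 2.94, 15.1 and 20.7 CPM of these sums on average. The similar sums therefore do not show that the other myelin genes kept their levels.

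**Figure D5:**
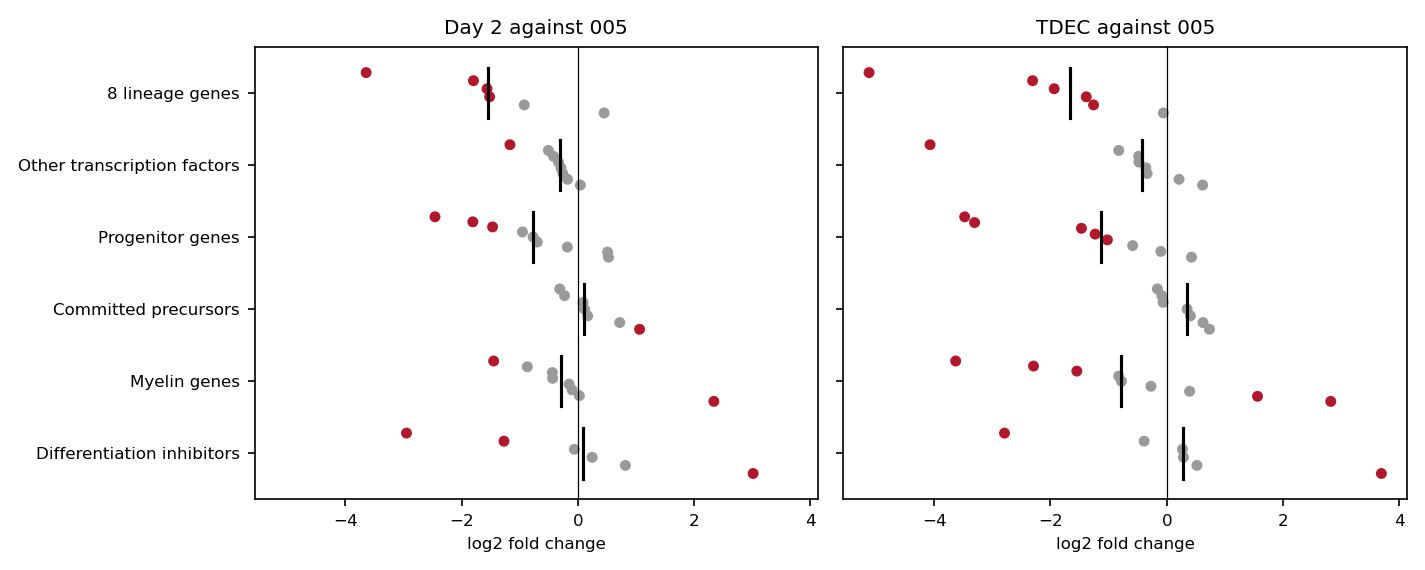
Each point is the log2 fold change of a tested gene against 005 on day 2 or in untreated TDECs, red where called, and each black bar is the median of a list. The 8 lineage genes have medians of -1.54 and -1.66, the progenitor genes -0.77 and -1.13, and the committed precursor genes 0.11 and 0.35.

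Inhibitors of oligodendrocyte differentiation moved in both directions. Of 6 tested on day 2, 1 was higher and 2 were lower, beside 5.35% and 4.48% of all genes tested. Id4, which binds and blocks partners of the OLIG proteins, rose by 3.01 ± 0.17 on day 2 and by 3.69 ± 0.14 in untreated TDECs (edgeR adjusted p = 3.88e-07 and 3.98e-10). Hes5, a Notch effector, changed by -2.95 and -2.79. Lingo1, a brake on myelination, fell by 1.27 on day 2 and was then higher by 1.52 in untreated TDECs than on day 2.

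Against MBMECs the list had 19 higher and 6 lower genes of 31 tested. Of all genes tested, 28.1% were higher and 20.8% lower. Ptprz1, a receptor phosphatase of progenitors, had a single count in MBMECs, and its ratio of untreated TDECs to MBMECs was 28300, with a counting interval of 5080 to 1118000. Vcan was higher by 7.38 on the log2 scale and Cacng4, with 4 counts in MBMECs, by 8.08. Among the 12 progenitor genes, C1ql1, Lhfpl3, Neu4, Pcdh15 and Susd5 had 0 counts in MBMECs, and Neu4 also had 0 counts in 005, on day 2 and in untreated TDECs. The lower genes included Lims2 (-6.94), Mal (-6.71) and Rras2 (-4.23). With sertraline 1 of 31 was higher and 2 were lower, Vcan (-1.02) and C1ql1 (-1.05). The shares over all genes tested were 1.82% higher and 3.26% lower. Hes5 changed by -2.51 with sertraline (edgeR adjusted p = 0.000114).

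Other cell type markers and proliferation genes moved with the same comparisons, and their part in the results was not tested. Of all genes tested, 5.35% were higher and 4.48% lower on day 2 than in 005. In untreated TDECs against 005 the shares were 13.1% and 10.4%. The 7 proliferation genes summed to 1861 to 2221 CPM in 005, 2411 to 2569 CPM on day 2 and 206 to 226 CPM in untreated TDECs, with 0 of 7 called on day 2 and 7 of 7 lower in untreated TDECs. The 8 astrocyte markers summed to 761 to 769 CPM in 005, 1343 to 1385 CPM on day 2 and 1004 to 1091 CPM in untreated TDECs. On day 2, 2 of 8 were higher and 0 were lower, and in untreated TDECs 2 were higher and 1 was lower. Gfap, the intermediate filament of astrocytes, rose by 2.24 and 3.07, Slc1a2 rose by 1.27 and 1.81, and S100b fell by 1.21 in untreated TDECs. The 7 neuronal markers summed to 619 to 758 CPM in 005, 657 to 734 CPM on day 2 and 327 to 331 CPM in untreated TDECs, most of it Map2, and 4 of 6 tested were lower and 1 was higher in untreated TDECs than in 005. The 6 Schwann cell markers, of cells that also use SOX10 and MBP, summed to 58.2 to 65.4 CPM in 005 and 174 to 189 CPM in untreated TDECs. The 5 microglia markers summed to between 7.33 and 10.5 CPM in all groups, most of it Csf1r. P2ry12, at 1.10 CPM on day 2 on average, changed by 1.47 on day 2 against 005 (edgeR adjusted p = 0.0186). In untreated TDECs against day 2 it changed by -4.05 (edgeR adjusted p = 0.000809). These values rest on 16 counts of P2ry12 in 005, 43 on day 2 and 2 in untreated TDECs. The size of the later change therefore depends on edgeR's prior count. With sertraline the proliferation genes summed to 282 to 301 CPM and the astrocyte markers to 1176 to 1211 CPM. Against untreated TDECs 0 of 7 tested were called in each of these lists, where 1.82% of all genes were higher and 3.26% lower. Most of the astrocyte sum was Slc1a3, at 712 CPM on average in untreated TDECs and 821 CPM with sertraline, a log2 fold change of 0.17.

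The endothelial label was checked on Pecam1, Cdh5, Cldn5, Tek, Tie1 and Kdr. They summed to 6014 to 6129 CPM in MBMECs, 4.72 to 5.52 CPM in untreated TDECs, 4.83 to 11.7 CPM on day 2 and 2.16 to 3.53 CPM in 005. Of 2 tested against 005, Kdr was called higher by 2.13 on day 2 and by 1.72 in untreated TDECs. The shares of higher genes over all genes tested were 5.35% and 13.1%. Pecam1 changed by -0.12 and -0.90 and was not called. All 6 were lower in untreated TDECs than in MBMECs, as were 20.8% of all genes tested. Cldn5 and Tie1 had 0 counts in untreated TDECs. The study identified TDECs by staining for CD31 and CD34 and reported that they formed tubes, which undifferentiated 005 did not obviously do. RNA levels do not measure either, and the name TDEC is used as the label gives it.

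The genes most like each member were sought by the Pearson r of log2 CPM over the 12 libraries of the 005 lineage, among 10341 expressed genes. The libraries form 4 groups, so these values mostly restate group differences, and no test was made. The nearest to Olig1 were Rhoq (0.991), Sdc3 (0.991) and Lrrc4 (0.988). Olig2 was nearest to Sall3 (0.988), Trak1 (0.987) and Nrxn2 (0.980), with no gene in common with Olig1 among these 3. Nkx2-2 was nearest to Ptgfrn (0.990), Dll1 (0.989) and Ncald (0.986), and Cspg4 to Shc4 (0.986), Lrrc4b (0.982) and Pik3c2b (0.978). Gpr17, with few counts, was nearest to Stat3 (0.960), and Cnp to Tnrc6a (0.970).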

How the data were processed

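Poly(A) RNA was sequenced from 005, TDECs on day 2, untreated TDECs, TDECs with sertraline and MBMECs. The authors deposited raw counts of reads per gene for 49585 genes, whole numbers without normalization. Per the notes of the submitters, reads went through bcl2fastq 2.19, Trimmomatic 0.38 and HISAT2 2.1.0 on mm10, with featureCounts 1.6.3 also listed. The strand setting, the handling of reads with several alignments and the annotation release are not given in the sources used here, so counts of overlapping genes may share reads. Untreated TDECs carry no day in their labels.

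The 6 libraries of each of 5 comparisons were scaled by TMM, filtered by filterByExpr (minimum count 10) and compared by the quasi-likelihood test of edgeR 4.0.16 in R 4.3.3, with Benjamini-Hochberg adjustment over all genes tested. The script was tested on simulated data. Fold changes are from edgeR and depend on its prior count where counts are few; with 1 to 3 counts a ratio has an exact binomial interval at a confidence of 0.95, and with 0 counts a floor of 3 counts over the group is used. Single libraries held 11283680 to 17093061 counts, and a floor of 3 counts was 0.194 to 0.267 CPM. Ratios of Olig1 to Olig2 were compared by exact two-sided permutation tests. Exon lengths and overlaps came from GENCODE M21, and upstream sequences from RefSeq (GRCm38.p6), which held 4 of the 8 members. All 8 members were named; of the wider lists up to 4 genes per direction were named by smallest p, and for each member with at least 1 CPM in a group of the 005 lineage the 3 most alike genes of at least 10 CPM. Members and lists were chosen with earlier results of these data known. Alternatives were size factors of the DESeq2 kind, plain totals, DESeq2 1.42.0, a minimum of 1 count, a fit over 15 libraries, the replicate number as a block and leaving out each library; leaving out replicate 3 of both 005 and day 2 was added after seeing the data. Some genes of the wider lists are counted but not reported here by name.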

Additional observations from a re-analysis of the deposited data

How the results depend on the processing

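Over the alternatives, 341 of 342 log2 fold changes of members kept their direction, and 342 kept their call by adjusted p and fold together. By the adjusted p alone 319 of 342 stayed on their side, and 23 crossed it, among them Olig1 in untreated TDECs against day 2 (6 of 12, up to 0.0962) and Cnp against MBMECs (8 of 12, up to 0.266). Of the counts of called genes, 347 of 366 stayed within 1.5 times. The change of direction was that of Olig2 in untreated TDECs against day 2, at 0.16 with all libraries, -0.029 without day 2 replicate 3 and 0.27 at most when a library was left out. The count of members called higher on day 2 was 1 without day 2 replicate 3 (0 to 1 over the libraries left out) and 1 without replicate 3 of both groups, through Mbp. The members lower in untreated TDECs than on day 2 numbered 1 with all genes of at least 1 count and 0 to 1 with a library left out, again through Mbp without day 2 replicate 3. With that minimum Sox10 was called lower in untreated TDECs than in 005. Of the wider list, the genes higher on day 2 numbered 1 with plain totals and 4 with a minimum of 1 count, and those higher in untreated TDECs than in 005 numbered 4 with DESeq2 and 4 with that minimum. Against day 2, 8 wider genes were lower with that minimum, and 2 to 4 were higher with a library left out (4 without TDEC replicate 3). Against MBMECs 32 were higher with that minimum. With sertraline 2 were higher with that minimum and 0 lower with plain totals. Leaving out a library gave 0 to 3 higher (3 without TDEC replicate 1, 0 without TDEC replicate 2 and 2 without TDEC replicate 3) and 1 to 4 lower (1 without TDEC replicate 1 or sertraline replicate 2, 4 without sertraline replicate 3). The cause of the other shifts was not tested.

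Plain totals shifted the median of all genes in untreated TDECs against 005 to -0.14, and there Cnp had an adjusted p of 0.0161. Mean levels by plain totals moved by more than 1 SD for Nkx2-2 (93.8 CPM) and Cnp (83.5 CPM) in 005 and for Cnp in MBMECs (64.2 CPM). The DESeq2 median was 0.12 in untreated TDECs against day 2 and 0.38 against MBMECs. Libraries with the same replicate number showed no common deviation from their group means, with correlations of -0.08 to 0.02. Whether they shared a culture or preparation cannot be told from this. With the replicate number as a block no member changed its call, and Olig1 on day 2 was -1.55. Depth limits Sox10, Mbp and Gpr17. With all libraries, Sox10 and Mbp had too few counts to be tested in any comparison. Gpr17 had too few in untreated TDECs against day 2 and in sertraline against untreated TDECs.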
